A study of Homo sapiens with 9 samples.

Results

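The genes described here encode heat shock proteins, cytosolic chaperones and the transcription factor HSF1. They comprise 7 members of the HSP70 and HSP110 family, 5 J-domain proteins, and 7 genes of HSP90 and its co-chaperones. HSPB1 and BAG3, 3 mitochondrial chaperones, and the 8 subunits of the chaperonin TRiC complete the set with HSF1. All are called chaperone genes below, HSF1 included. They were chosen by symbol, 33 genes in all, out of 58243 gene identifiers in the count tables. RNA-seq counts came from DOHH2, an established human cell line of transformed follicular lymphoma, in 3 groups of 3 libraries. The day 0 libraries were made from cells in culture, sampled when mice were grafted. The day 19 and day 40 libraries were made from human CD20+ cells sorted out of the femurs of grafted RAGγc mice. Their days after grafting are those of the labels, which the title dates given below do not all match. No treatment other than the graft is described for any group. RAGγc mice lack mature lymphocytes but keep myeloid, stromal and endothelial cells. All libraries come from 1 cell line, and no source used here gives the number, age or sex of the mice behind each femur library. Femur cells were released with enzymes at warm temperature, depleted of mouse blood cells on beads and sorted. No such steps are described for the cultured cells, so growth in the femur and this handling cannot be told apart in any comparison with day 0.

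Chaperones bind proteins that are unfolded or not yet folded and help them to fold. HSP70 works in cycles with J-domain proteins, which load the client, and with nucleotide exchange factors such as the HSP110 proteins and BAG3, which release it. HSP90 takes over clients such as kinases and steroid receptors with its own co-chaperones, and TRiC folds actin and tubulin inside a closed chamber. Under heat or other proteotoxic stress the transcription factor HSF1 binds heat shock elements, inverted repeats of a short unit, and switches on HSPA1A, HSPA1B, DNAJB1, HSPB1 and other inducible chaperones. HSPA8, HSP90AB1 and the TRiC subunits are made in unstressed cells, and dividing lymphoma cells carry large amounts of them.

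Libraries held 21071239 to 29456271 counts. Levels are given as CPM, counts scaled to the library size, after TMM, a correction for differences in library composition. The 7 B cell markers were detected in every group, with a summed level of 4110 to 5170 CPM in culture, 2780 to 3010 CPM in day 19 and 3260 to 3490 CPM in day 40 libraries. Markers of other cells were low but not absent. The 5 T cell markers, mostly TRAC, summed to 21.9 to 28.8 CPM in culture, 6.43 to 7.82 CPM at day 19 and 15.3 to 18 CPM at day 40. The 6 myeloid markers, mostly LYZ, summed to at most 5.94 CPM and the 5 endothelial markers, mostly PECAM1, to at most 7.6 CPM in any library. The 9 stromal markers together reached 3.48 to 6.8 CPM in femur libraries and 0.137 to 0.504 CPM in culture libraries. In the femur only COL1A1 and PDGFRB of these had counts, and PDGFRA at day 40 alone. COL1A2, COL3A1, LUM, DCN, POSTN and CXCL12 had 0 counts in every femur library. The 5 erythroid markers reached at most 0.164 CPM. CD2, HBB, S100A8, COL1A2 and CDH5 were at 0 counts in all 9. The part of other cells in the results was not tested. Mitochondrially encoded genes took 4.83% to 6.07% of counts in culture, 7.54% to 8.67% at day 19 and 7.83% to 8.51% at day 40. By the dates in the titles, the day 19 libraries were taken 18, 19 and 19 days, and the day 40 libraries 11, 26 and 39 days, after culture was sampled in their period. The day 40 intervals of 11 and 26 days do not match a graft made at that culture sampling. In period 1 the day 40 library is dated before the day 19 library. Day 40 is used below as the label. The replicate numbers used below name the sampling periods. Each period holds 1 library per group, so values within a period are ratios without a test. Nothing says that the 3 libraries of a group came from separate mice or cultures, and the p-values measure the spread between these libraries.

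Of the 33 genes, 32 had enough counts to be tested. HSPA1A was not. In the quasi-likelihood test of edgeR, with Benjamini-Hochberg adjustment over all 15163 genes tested and an adjusted p under 0.05 as the threshold, 1 chaperone gene was higher at day 19 than at day 0 and 15 were lower. Among all genes 26.3% were higher and 26.5% lower in that comparison. At day 40 against day 0, 4 chaperone genes were higher and 14 lower, beside 23.3% of all genes higher and 23.3% lower. With the sampling period as a block, 2 were higher and 16 lower at day 40. Over the whole set, the share that were lower was thus above the background at both days, and the share that were higher was below it. TRiC subunits made up 8 of the 15 lower genes at day 19 and 7 of the 14 at day 40. Outside TRiC, at each day, 2 of 6 tested HSP70 and HSP110 genes and 1 of 5 J-domain genes were lower. So were 2 of 7 genes of HSP90 and its co-chaperones and 2 of 3 mitochondrial chaperones. The median log2 fold change over the 32 genes was -0.22 at day 19 and -0.21 at day 40, against 0.01 over all genes in each. With scaling to the total library size alone, which moved the median of all genes to 0.10 at both days, the split was 2 higher and 10 lower at day 19, and 5 higher and 10 lower at day 40. The comparisons with day 0 share the 3 culture libraries. A lower level in bulk RNA does not distinguish fewer cells with the transcript from less transcript per cell.

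**Figure D1:**
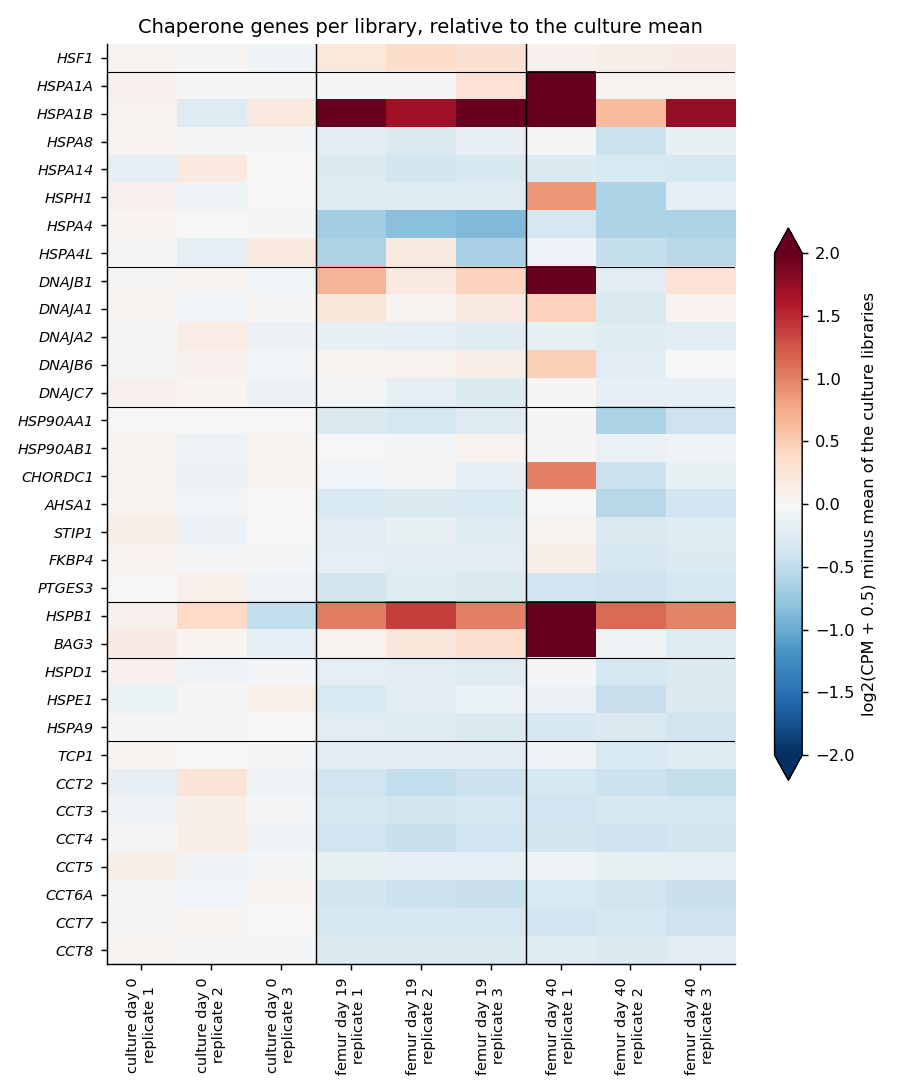
Each row is 1 of the 33 chaperone genes and each column 1 of the 9 libraries; colour is log2(CPM + 0.5) minus the mean of the 3 culture libraries, saturated at 2 in either direction, and thin lines separate the functional groups. HSPA1B and HSPB1 are red in all 6 femur libraries, the 8 TRiC subunits are pale blue in all 6, and day 40 replicate 1 stands apart in red for HSPA1A, HSPA1B, DNAJB1, HSPB1, BAG3, HSPH1 and CHORDC1.

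No gene for a chaperone protein was called higher at day 19 than at day 0 in the test above. The 1 gene called was HSF1, the transcription factor that is the master regulator of the heat shock response. Its level was 151, 149 and 138 CPM in the culture libraries, 168, 187 and 181 CPM at day 19, and 154, 159 and 164 CPM at day 40. All 6 femur libraries lay above all 3 culture libraries. At day 19 the log2 fold change was 0.29 with a standard error (SE) of 0.06 and an adjusted p of 0.00217. At day 40 it was 0.12 with an adjusted p of 0.131. The day 19 call held in every alternative processing. HSF1 overlaps DGAT1 on the other strand, and the strand setting of the counting is not given, so reads of the overlap may belong to either gene.

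HSPA1A and HSPA1B encode the stress-inducible HSP70. They lie near each other on the forward strand of chromosome 6, HSPA1A at chr6:31815464-31817946 and HSPA1B at chr6:31827735-31830255 on hg38. Their transcripts are nearly the same: 72.6% of the 50-base words in the HSPA1A transcript also occur in that of HSPA1B, so reads can be lost or moved between them. Their promoters are alike as well, with 92.0% identical positions over 301 aligned columns of the RefSeq windows. The sequences below, from RefSeq on GRCh38.p14, run 5′ to 3′ on the forward strand up to the base before the RefSeq transcription start and are shown because they carry the match to the heat shock element. Capitals mark a match to GAANNTTCNNGAA, or its reverse complement, with at most 1 mismatch in the 9 fixed bases. The first stretch is chr6:31815417-31815542 and the second chr6:31827613-31827737.
HSPA1A: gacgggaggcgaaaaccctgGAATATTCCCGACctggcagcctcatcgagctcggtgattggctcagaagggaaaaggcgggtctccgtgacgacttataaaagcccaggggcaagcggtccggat
HSPA1B: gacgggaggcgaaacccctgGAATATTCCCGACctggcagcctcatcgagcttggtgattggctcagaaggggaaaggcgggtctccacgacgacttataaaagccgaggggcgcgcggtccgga

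HSPA1B was higher at day 40 than in culture and just missed the threshold at day 19. The level was 9.08, 7.06 and 9.85 CPM in culture, 37.3, 29.1 and 39.8 CPM at day 19, and 250, 13.6 and 30.4 CPM at day 40. Every femur library exceeded every culture library, and day 40 replicate 1 stood far above the other femur libraries. At day 40 HSPA1B rose 11.3-fold, a log2 fold change of 3.50 (SE 0.80) with an edgeR adjusted p of 0.00449. Without day 40 replicate 1 the log2 fold change was 1.32 with an adjusted p of 0.00303. At day 19 the log2 fold change was 2.03 (SE 0.82) with an adjusted p of 0.0548. The spread is shared by all groups in this fit. Day 40 replicate 1 was singled out for its high HSPA1B. The p-values of fits without it, in this paragraph and below, therefore show dependence on that library and are not independent support. Leaving it out also lowers the day 40 mean of any gene that was high in it. In a fit without day 40 replicate 1 the day 19 log2 fold change was 2.02 with an adjusted p of 5.073e-05, and without day 40 replicate 2 or 3 the adjusted p was 0.0127 or 0.0350. With the sampling period as a block the day 40 log2 fold change was 2.82 with an adjusted p of 0.00436. Within the 3 sampling periods the ratio of day 19 to culture was 4.11, 4.12 and 4.04, and that of day 40 to culture was 27.6, 1.92 and 3.08.

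HSPA1A had 1, 0 and 0 counts in culture, 0, 0 and 3 counts at day 19, and 280, 1 and 1 counts at day 40. The 280 counts, 10.1 CPM, stood in the library that also held the highest HSPA1B. With the counts of both genes summed before the fit, the pair had a log2 fold change of 2.03 (adjusted p of 0.0579) at day 19 and 3.54 (adjusted p of 0.00453) at day 40, against day 0.

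Immediate early genes, transcription factor and feedback genes that cells switch on within minutes of a stimulus, moved with HSPA1B between culture and femur. Of the 16 on the list 15 were tested, and 12 were called higher at day 19 and 12 at day 40 against day 0, with median log2 fold changes of 2.29 and 2.31. Higher genes made up 26.3% of all genes at day 19 and 23.3% at day 40. FOSB had 2.72, 3.37 and 2.67 CPM in culture, 37.8, 25.1 and 38.005 CPM at day 19, and 56.6, 16.3 and 32.8 CPM at day 40. The change in FOSB was 3.53 on the log2 scale (adjusted p of 1.488e-05) at day 19 and 3.59 (adjusted p of 2.029e-05) at day 40. FOS had 0.170, 5.37 and 0.155 CPM in culture, 20.9, 16.7 and 24.1 CPM at day 19, and 44.5, 17.5 and 23.4 CPM at day 40. Its log2 fold changes of 3.50 (adjusted p of 0.00139) and 3.97 (adjusted p of 7.508e-04) at those days rest on culture replicate 2, the high one of the 3, and were 6.94 and 7.40 without it and 2.90 and 3.37 without culture replicate 3. DUSP1 had 3.15 (adjusted p of 1.317e-04) at day 19, and ATF3 had 3.48 (adjusted p of 2.13e-04) at day 40. The part of cell handling in the HSPA1B and immediate early values was not tested.

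The other 5 tested HSP70 and HSP110 genes had negative log2 fold changes at day 19. HSPA8, the constitutive HSP70 of the cytosol, had 2378, 2209 and 2254 CPM in culture, 1939, 1881 and 2038 CPM at day 19, and 2236, 1699 and 2049 CPM at day 40. The HSPA8 log2 fold change was -0.22 (adjusted p of 0.0687) at day 19 and -0.19 (adjusted p of 0.120) at day 40. It did not pass the threshold on either day, although the day 19 and culture libraries did not overlap. It was called lower at day 19 without culture replicate 2, day 40 replicate 1 or day 40 replicate 2, with adjusted p from 0.0294 to 0.0393, and at day 40 without day 40 replicate 1, with a log2 fold change of -0.29 and an adjusted p of 0.0335.

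HSPA4, an HSP110-type exchange factor, fell most of the 32 genes among those called. Its level was 373, 362 and 355 CPM in culture, 225, 204 and 197 CPM at day 19, and 285, 237 and 235 CPM at day 40. No library of 1 group overlapped another group. The log2 fold change was -0.80 (SE 0.08, adjusted p of 7.35e-06) at day 19 and -0.53 (SE 0.08, adjusted p of 2.933e-04) at day 40. HSPA14, an atypical HSP70 of the ribosome-associated complex, was lower at a log2 fold change of -0.33 (adjusted p of 0.0106) at day 19 and -0.32 (adjusted p of 0.0145) at day 40, with 24.5 to 26.2 CPM in the femur libraries and 27.8, 36.2 and 31.6 CPM in culture. The day 40 call was lost without day 40 replicate 3, with an adjusted p of 0.0536. HSPA14 overlaps CDNF and a second locus of the same name. HSPA4L, another HSP110 gene, stayed between 0.127 and 0.620 CPM in all 9 libraries and was not called. Without day 19 replicate 2 it was lower at day 19, with a log2 fold change of -1.87 and an adjusted p of 0.0278.

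HSPH1, the main inducible HSP110, had 340, 303 and 320 CPM in culture, 270, 270 and 268 CPM at day 19, and 587, 207 and 280 CPM at day 40. The day 40 libraries thus lay on both sides of culture. The log2 fold change was -0.26 (adjusted p of 0.441) at day 19 and 0.16 (adjusted p of 0.656) at day 40. Without day 40 replicate 1, HSPH1 was lower at day 40, with a log2 fold change of -0.41 and an adjusted p of 0.0121. In that fit it was also lower at day 19, at -0.27 with an adjusted p of 0.0358.

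**Figure D2:**
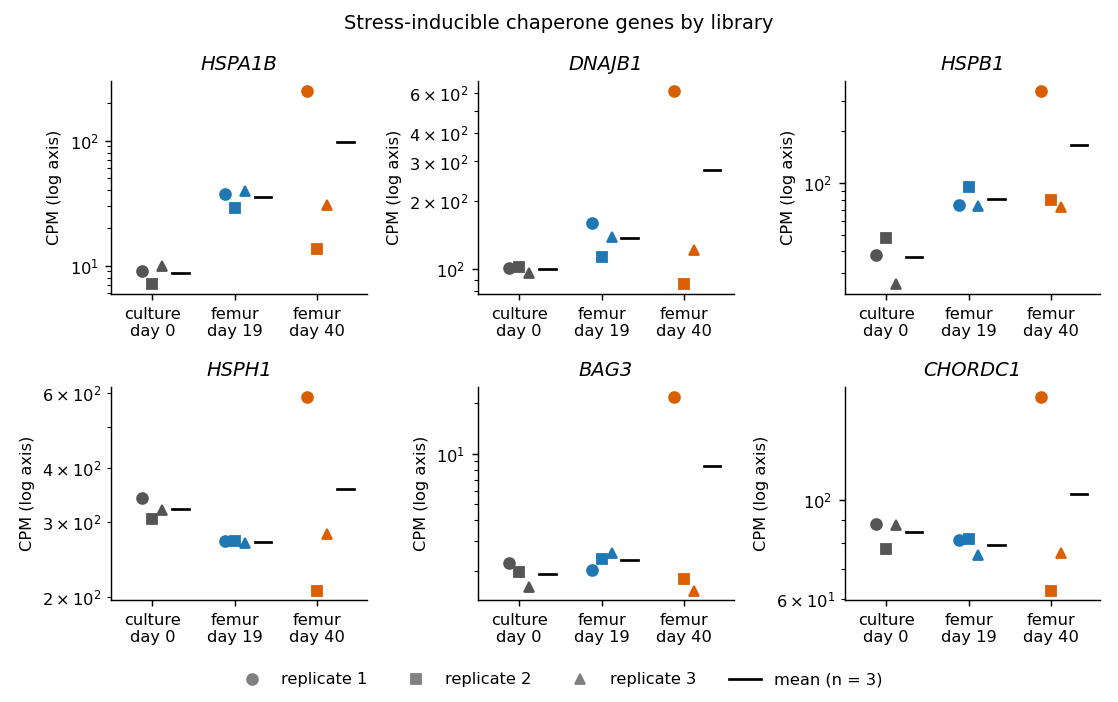
CPM on a log axis for 6 inducible chaperone genes, 1 point per library with a symbol per replicate number, and a bar for the mean of 3. Day 40 replicate 1 is the highest point in all 6 panels, and in HSPA1B and HSPB1 every femur point also lies above every culture point.

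DNAJB1, the stress-inducible J-domain partner of HSP70, had 102, 103 and 96.4 CPM in culture, 161, 114 and 138 CPM at day 19, and 617, 85.8 and 122 CPM at day 40. The day 19 libraries were all above culture, whereas 1 day 40 library was below it. At day 40 DNAJB1 was called higher, with a log2 fold change of 1.46 (SE 0.53, adjusted p of 0.0415), but without day 40 replicate 1 the value was 0.04 with an adjusted p of 0.844. With the sampling period as a block it was 1.01 with an adjusted p of 0.0674. At day 19 it was 0.46 with an adjusted p of 0.491, and 0.45 with an adjusted p of 0.0152 without day 40 replicate 1. DNAJB1 overlaps TECR on the other strand. The stretch below, chr19:14518398-14518494 on the reverse strand of GRCh38.p14, ends at the base before a RefSeq start of DNAJB1 and holds 2 elements with 1 mismatch each.
DNAJB1: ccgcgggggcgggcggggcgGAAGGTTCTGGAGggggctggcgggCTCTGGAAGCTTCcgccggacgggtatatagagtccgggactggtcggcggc

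The other 4 J-domain genes had small log2 fold changes. DNAJA2 was lower, with a log2 fold change of -0.20 (adjusted p of 0.0343) at day 19 and -0.21 (adjusted p of 0.0333) at day 40. The calls were lost on leaving out single libraries, at day 19 without culture replicate 2, any day 19 library or day 40 replicate 3 (adjusted p from 0.0501 to 0.117) and at day 40 without culture replicate 2, day 19 replicate 2 or 3, or day 40 replicate 2 or 3 (adjusted p from 0.0502 to 0.0982). Its levels were 93.2 to 99.9 CPM in the femur and 102 to 123 CPM in culture. DNAJA1, DNAJB6, a suppressor of aggregation, and DNAJC7 had log2 fold changes between -0.17 and 0.16 against day 0 and were not called. Without culture replicate 3 DNAJC7 was lower at day 19, with a log2 fold change of -0.25 and an adjusted p of 0.0318.

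HSPB1 encodes HSP27, a small heat shock protein that holds unfolded proteins in a soluble state. It had 38.2, 48.0 and 25.7 CPM in culture, 74.2, 95.4 and 73.1 CPM at day 19, and 345, 80.0 and 72.7 CPM at day 40. Every femur library was above every culture library. At day 40 HSPB1 rose 4.47-fold, a log2 fold change of 2.16 (SE 0.48) with an adjusted p of 0.00353. Without day 40 replicate 1 it was 1.03 with an adjusted p of 0.00185. At day 19 the log2 fold change was 1.12 (SE 0.48) with an adjusted p of 0.0695, and 1.11 with an adjusted p of 3.622e-04 in the fit without day 40 replicate 1. The adjusted p was 0.0475 or 0.0351 without day 40 replicate 2 or 3. The ratios to culture within the periods were 1.94, 1.99 and 2.85 at day 19 and 9.03, 1.67 and 2.83 at day 40. Its promoter stretch, chr7:76302471-76302672 on the forward strand, carries 1 element with 1 mismatch.
HSPB1: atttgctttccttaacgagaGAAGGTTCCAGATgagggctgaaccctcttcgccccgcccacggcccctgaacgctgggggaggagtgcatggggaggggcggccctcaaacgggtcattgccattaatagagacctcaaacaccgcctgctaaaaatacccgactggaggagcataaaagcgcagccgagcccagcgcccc

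BAG3, an exchange factor of HSP70 that guides clients to autophagy, had 2.21, 1.96 and 1.59 CPM in culture, 2.02, 2.33 and 2.54 CPM at day 19, and 21.8, 1.78 and 1.52 CPM at day 40. The day 40 libraries other than replicate 1 lay within the range of culture or below it. BAG3 was called higher at day 40, with a log2 fold change of 2.13 (SE 0.79, adjusted p of 0.0443). Without day 40 replicate 1 it was -0.22 with an adjusted p of 0.510, and with the sampling period as a block 1.53 with an adjusted p of 0.0798. The BAG3 call was also lost when any 1 of the culture or day 19 libraries was left out, with adjusted p from 0.0552 to 0.108, and the DNAJB1 call likewise, with adjusted p from 0.052 to 0.0931.

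HSP90AB1 had the highest level per length of the set. Per kilobase of transcript, culture libraries averaged 941 CPM for HSP90AB1, 926 CPM for HSPA8, 579 CPM for HSP90AA1 and 437 CPM for HSPD1, compared with 3.44 CPM for HSPA1B and 0.746 CPM for BAG3. As 73.5% of the 50-base words of HSPA1B occur in other genes, its reads may be lost or moved and its value is uncertain. HSP90AA1, the inducible HSP90, had 1942, 1952 and 1975 CPM in culture, 1595, 1527 and 1629 CPM at day 19, and 1986, 1263 and 1471 CPM at day 40. All 3 day 19 libraries lay below culture, and at day 40 only replicate 1 reached it. The log2 fold change was -0.31 at day 19 (adjusted p of 0.0628) and -0.31 at day 40 (adjusted p of 0.0619). Without day 40 replicate 1 HSP90AA1 was lower on both days, with log2 fold changes of -0.32 (adjusted p of 0.0052) at day 19 and -0.53 (adjusted p of 8.142e-04) at day 40. It was also lower at day 19 without day 40 replicate 2 (adjusted p of 0.0245). With the sampling period as a block it was lower at day 40, with a log2 fold change of -0.33 and an adjusted p of 0.0329.

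HSP90AB1, the constitutive HSP90, had 2609, 2354 and 2590 CPM in culture, 2518, 2473 and 2635 CPM at day 19, and 2561, 2301 and 2367 CPM at day 40. The groups overlapped. HSP90AB1 had a log2 fold change of 0.01 (SE 0.08, adjusted p of 0.896) at day 19 and -0.06 (SE 0.08, adjusted p of 0.533) at day 40.

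Of the 5 co-chaperones of HSP90 on the list, AHSA1 and PTGES3 were lower on both days. AHSA1, an activator of the HSP90 ATPase, was lower at a log2 fold change of -0.30 (adjusted p of 0.0351) at day 19 and -0.29 (adjusted p of 0.0469) at day 40. The day 19 call was lost without culture replicate 1 or any day 19 library (adjusted p from 0.0801 to 0.101). The day 40 call was lost without any 1 library other than culture replicate 2 and day 40 replicate 1 (adjusted p from 0.0592 to 0.152). PTGES3, or p23, which stabilises the closed HSP90 dimer, had 447, 485 and 419 CPM in culture, 349, 381 and 368 CPM at day 19, and 344, 337 and 354 CPM at day 40. The log2 fold change of PTGES3 was -0.30 (adjusted p of 0.00307) at day 19 and -0.38 (adjusted p of 7.65e-04) at day 40, with no overlap between femur and culture. STIP1, which bridges HSP70 and HSP90, and the immunophilin FKBP4 had log2 fold changes of -0.20 and -0.21 at day 19 and -0.15 and -0.14 at day 40, with adjusted p from 0.0885 to 0.283. Without day 40 replicate 1 both were lower on both days, with adjusted p from 0.00414 to 0.0228, and without culture replicate 2 STIP1 was lower at day 19 (adjusted p of 0.0295).

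CHORDC1, an HSP90 co-chaperone induced by heat, had 88.2, 77.6 and 87.5 CPM in culture, 81.0, 81.8 and 75.0 CPM at day 19, and 170, 62.5 and 75.9 CPM at day 40. It was not called, with adjusted p of 0.797 at day 19 and 0.408 at day 40. CHORDC1 was lower at day 40 once replicate 1 of that day was left out, with a log2 fold change of -0.30 and an adjusted p of 0.0274. The CHORDC1 stretch, chr11:90223050-90223129 on the reverse strand, holds 3 exact elements that overlap, and the HSP90AA1 stretch, chr14:102087045-102087152 on the reverse strand, holds exact and 1-mismatch elements.
CHORDC1: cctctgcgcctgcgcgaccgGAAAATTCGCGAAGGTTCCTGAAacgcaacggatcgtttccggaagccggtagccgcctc
HSP90AA1: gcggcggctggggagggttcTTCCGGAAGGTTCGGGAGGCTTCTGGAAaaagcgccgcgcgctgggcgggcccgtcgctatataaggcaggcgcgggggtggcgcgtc

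The 3 mitochondrial chaperones had negative log2 fold changes at both days, of which HSPD1 was called at day 19, HSPE1 at day 40 and HSPA9 at both. HSPD1, the mitochondrial HSP60, had 1136, 1025 and 1054 CPM in culture, 950, 911 and 897 CPM at day 19, and 1049, 840 and 873 CPM at day 40. For HSPD1 the log2 fold change was -0.22 on both days, with an adjusted p of 0.0494 at day 19 and 0.0569 at day 40. The day 19 call was lost without culture replicate 1, any day 19 library or day 40 replicate 3, with adjusted p from 0.0645 to 0.148. At day 40 HSPD1 was lower with the sampling period as a block (adjusted p of 0.0285), without day 40 replicate 1 (0.00665) and without culture replicate 2 (0.0236). Its partner HSPE1 had 63.7, 71.5 and 75.6 CPM in culture, 56.9, 60.6 and 63.9 CPM at day 19, and 64.6, 50.99 and 57.4 CPM at day 40. The log2 fold change of HSPE1 was -0.22 (adjusted p of 0.0674) at day 19 and -0.29 (adjusted p of 0.0244) at day 40. The day 40 call of HSPE1 was lost without culture replicate 3 or day 40 replicate 2 or 3 (adjusted p from 0.0640 to 0.0838), and at day 19 it was lower without culture replicate 1 or day 40 replicate 1 or 2 (adjusted p from 0.0321 to 0.0417). HSPD1 and HSPE1 overlap head to head, and 52.9% of the 50-base words of HSPE1 occur in other genes. HSPA9, the mitochondrial HSP70 that pulls proteins into the matrix, had 643, 617 and 627 CPM in culture and fell to 539, 527 and 516 CPM at day 19 and to 503, 516 and 490 CPM at day 40. Its log2 fold change was -0.26 (adjusted p of 0.00335) and -0.32 (adjusted p of 9.596e-04) at those days.

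**Figure D3:**
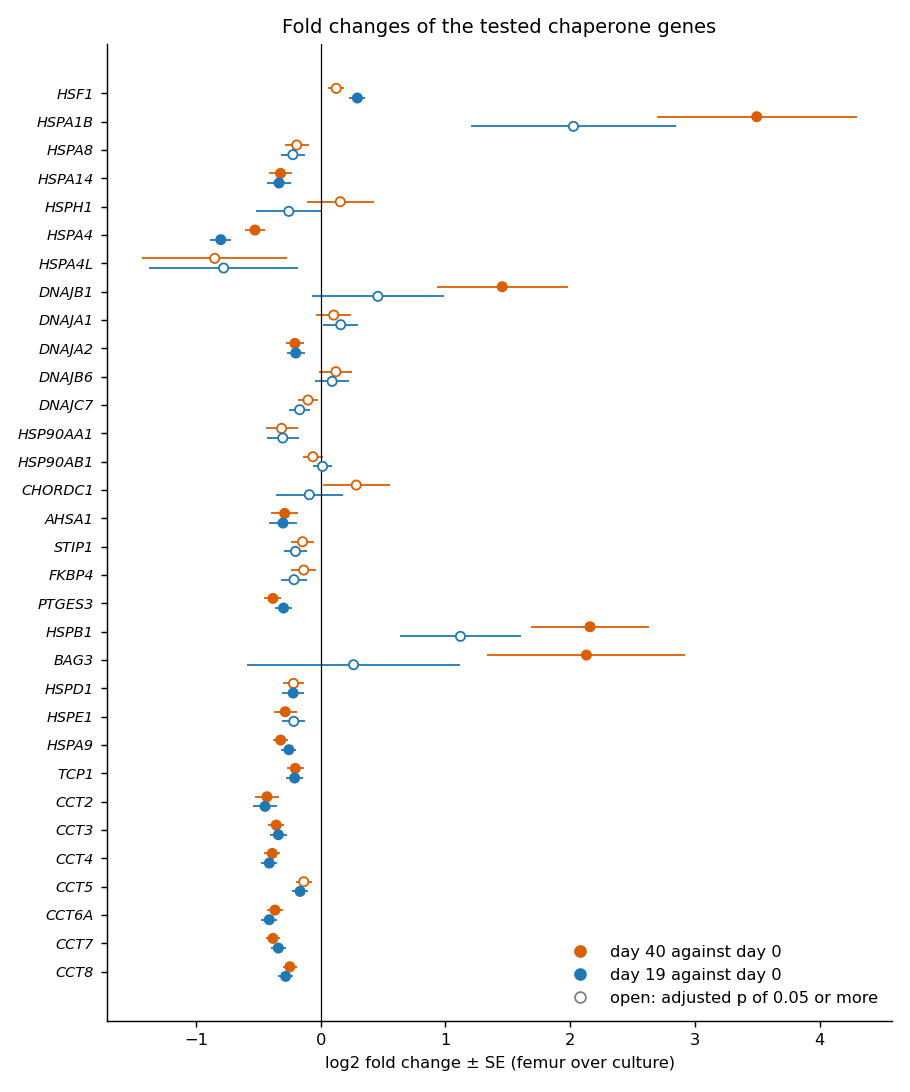
Log2 fold change with its standard error for the 32 tested chaperone genes, femur over culture, day 40 (orange) above day 19 (blue) in each row; filled points have an adjusted p under 0.05. Small decreases with short error bars run from HSPD1 down through TRiC, while HSPA1B, DNAJB1, HSPB1 and BAG3 have wide bars and the highest day 40 values, and HSPA4L has wide bars below 0.

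The TRiC subunits fell together. All 8 were called lower at day 19, beside 26.5% of all genes. At day 40, 7 of 8 were called lower, with CCT5 the exception, beside 23.3% of all genes. The median log2 fold change was -0.34 at day 19 and -0.36 at day 40. Summed over the 8 genes, the level was 3889, 4043 and 3840 CPM in culture, 3163, 3081 and 3108 CPM at day 19, and 3227, 3116 and 3084 CPM at day 40. The femur libraries lay close to each other, and day 40 replicate 1 did not stand apart. Within the 3 sampling periods the summed level was 0.813, 0.762 and 0.809 of culture at day 19 and 0.830, 0.771 and 0.803 of culture at day 40. All 8 subunits kept a negative log2 fold change against day 0 under every alternative processing and with every single library left out. The number called ranged from 6 to 8 at day 19 and from 5 to 8 at day 40.

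CCT2 had the most negative values with all libraries, with 378, 501 and 394 CPM in culture, 320, 300 and 313 CPM at day 19, and 330, 311 and 303 CPM at day 40. On the log2 scale CCT2 changed by -0.45 (SE 0.09, adjusted p of 0.00181) at day 19 and -0.43 (SE 0.09, adjusted p of 0.00289) at day 40. Without culture replicate 2, the high one, CCT2 was at -0.32 and -0.31 and CCT6A lay below it, at -0.45 and -0.41. CCT6A, CCT7, CCT4, CCT3 and CCT8 had log2 fold changes between -0.41 and -0.25 on both days, and TCP1 was at -0.21 and -0.20. CCT6A had 747, 709 and 757 CPM in culture, 570, 547 and 544 CPM at day 19, and 600, 571 and 544 CPM at day 40. CCT7 had 528, 559 and 538 CPM in culture, 432, 423 and 428 CPM at day 19, and 414, 425 and 407 CPM at day 40. In both, the femur libraries lay apart from culture. CCT5 lay nearest to 0 with all libraries, at 397, 349 and 359 CPM in culture, 333, 329 and 323 CPM at day 19, and 345, 332 and 328 CPM at day 40. Its log2 fold change was -0.17 (adjusted p of 0.0470) at day 19 and -0.14 (adjusted p of 0.102) at day 40. The CCT5 call at day 19 was lost without culture replicate 1, any day 19 library or day 40 replicate 2 or 3 (adjusted p from 0.0545 to 0.180), and without culture replicate 2 it was lower at day 40 (0.0193). The TCP1 calls were lost without culture replicate 1 or any day 19 library at day 19 (adjusted p from 0.0620 to 0.0711), and without culture replicate 1, day 19 replicate 2 or day 40 replicate 2 or 3 at day 40 (0.0504 to 0.113). CCT5 shares 47.1% of its 50-base words with an overlapping antisense gene, TCP1 overlaps ACAT2, and CCT4 overlaps COMMD1, so part of their reads may come from those genes. AHSA1, HSP90AA1, DNAJC7, FKBP4, CHORDC1 and HSPA4L also overlap genes on the other strand. DNAJC7, HSPD1, HSPA14, TCP1 and HSP90AA1 share 27.8%, 25%, 22.2%, 22.1% and 21.4% of their 50-base words with other genes. The share was 19.1% for DNAJB6, 18.8% for HSP90AB1, 15.4% for HSPA8, 12.5% for PTGES3 and 11.4% for HSPB1.

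The levels of the subunits per kilobase of transcript ranged in culture from 100 CPM for CCT5 to 283 CPM for CCT7. The proteins occupy equal places in the TRiC ring, but transcript levels of different genes rest on the transcript chosen for the length.

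**Figure D4:**
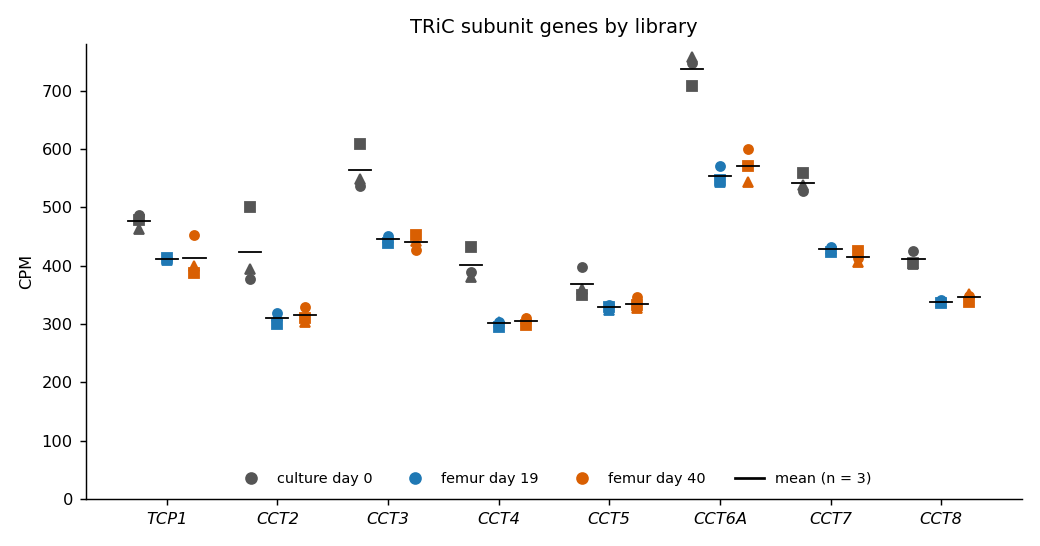
CPM of the 8 TRiC subunit genes in each library, with culture (grey), day 19 (blue) and day 40 (orange) side by side, a symbol per replicate number and a bar for the mean of 3. In each gene the 3 culture points lie above all 6 femur points, and the day 19 and day 40 points overlap.

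Between the femur groups no chaperone gene was called in either direction by edgeR, beside 3.23% of all genes called higher and 1.45% called lower at day 40 than at day 19. At an unadjusted p under 0.05 there were 4 of the 32 genes (HSPA4, HSPB1, HSF1 and BAG3), beside 16.7% of all genes. limma voom called 0, and DESeq2 called 1, HSPA4. The median log2 fold change over the 32 genes was 0.02. HSPA4 had a log2 fold change of 0.27 (SE 0.08) with an edgeR adjusted p of 0.0908, and its 3 day 40 libraries lay above its 3 day 19 libraries. With the sampling period as a block it was the 1 gene called, at 0.27 with an adjusted p of 0.0298. The TRiC subunits ranged from -0.04 for CCT7 to 0.05 for CCT6A. HSPA1B differed by 1.47 (SE 0.72, adjusted p of 0.346), with overlapping groups.

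Day 40 replicate 1 stood apart from the other day 40 libraries in the inducible chaperones. It was singled out for its high HSPA1B, so the values that follow describe it. Replicate 1 was the highest library of its group in 18 of the 33 genes in culture and in 17 at day 19. Day 40 replicate 1 was the highest of the 3 day 40 libraries in 27 of the 33 genes. Its CPM was at least 2-fold above the mean of the other day 40 libraries in 7 of the 32 tested genes, HSPA1B among them, beside 1.83% of all genes tested. The ratio was 13.3 for BAG3, 11.4 for HSPA1B, 5.93 for DNAJB1, 4.53 for HSPB1, 2.46 for CHORDC1, 2.41 for HSPH1 and 2.38 for HSPA4L, whose level was under 1 CPM. HSPA1A, not tested, had 280 counts there and 1 count in each of the other day 40 libraries. Constitutive members moved less, with ratios of 1.19 for HSPA8 and 1.10 for HSP90AB1. The median ratio over the 32 genes was 1.19, against 0.9996 over all genes. Among genes outside the set, chosen after their values were seen, the ratio was 55.5 for HSPA6, a strictly inducible HSP70, 34.9 for the collagen chaperone SERPINH1, 6.09 for DNAJB4 and 6.48 for JUN. HSPA6 had 9.20 CPM there and 0.168 and 0.164 CPM in the other day 40 libraries. These genes do not stand for their lists. On the same lists the ratio was 1.11 for JUNB, 1.06 for JUND, 0.952 for HSF2 and 0.653 for DNAJB5. It was 2.18 for FOS and 2.80 for DUSP1. This library was the one taken 11 days after its culture library by the titles. The part of handling, of the sampling date or of the single library in these values was not tested.

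Heat shock elements were searched as GAANNTTCNNGAA and its reverse complement TTCNNGAANNTTC on RefSeq windows of 250 bases before to 50 after each start, with overlapping matches kept. Windows were used for 29 of the 33 genes. An exact match occurred in 7 of them, 24.1%, compared with 0.608% of 27305 genes with a window. A match with at most 1 mismatch occurred in 17, 58.6%, compared with 7.6%. Of the 8 chaperone genes at least 2-fold above the other day 40 libraries in replicate 1, HSPA1A included, 1 had an exact match, 5 had a match with 1 mismatch and 2, BAG3 and HSPH1, had none in the window. Of the other 25, 6 had an exact match, 5 had 1 mismatch, 10 had none and 4 had no window. Of the TRiC subunits only CCT5 had a match, with 1 mismatch. These counts describe letters in the windows, not binding.

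**Figure D5:**
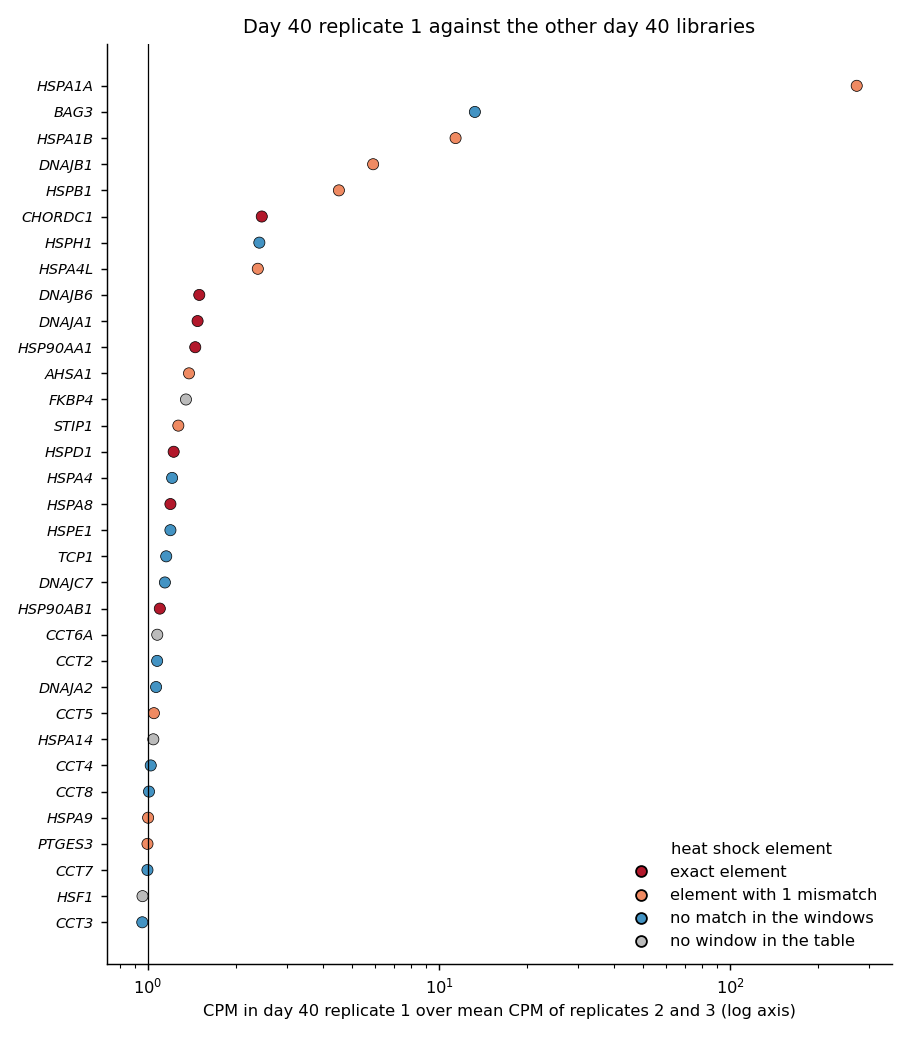
CPM in day 40 replicate 1 over the mean CPM of day 40 replicates 2 and 3 on a log axis, 1 point per chaperone gene, sorted by the ratio and coloured by the heat shock element match of its RefSeq windows. HSPA1A, BAG3, HSPA1B, DNAJB1 and HSPB1 lie at 4.53 or more, and the TRiC subunits lie near 1.

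Further genes of the chaperone network were counted from lists. Of 23 tested genes of the HSP70 system, 2 were higher at day 19 than at day 0, beside 26.3% of all genes. In the same comparison 13 were lower, beside 26.5% of all genes. At day 40, 13 were lower and 10 not called, beside 23.3% of all genes lower. The count of higher genes at day 19 was 0 without culture replicate 2 or day 19 replicate 2, and 1 without culture replicate 3, day 19 replicate 1 or 3, or day 40 replicate 3. DNAJB2, a J-domain protein that binds ubiquitinated clients, had 51.4, 52.1 and 47.8 CPM in culture, 22.6, 19.7 and 23.7 CPM at day 19, and 38.6, 26.3 and 31.9 CPM at day 40. Against day 0 its log2 fold change was -1.20 (adjusted p of 7.363e-06) at day 19 and -0.65 (adjusted p of 0.00100) at day 40. DNAJB2 was also higher at day 40 than at day 19, at 0.55 (adjusted p of 0.0244), the 1 gene of this list called between the femur groups, a call lost without any 1 day 19 library or day 40 replicate 1 or 3 (adjusted p from 0.0509 to 0.130). DNAJB5, another J-domain gene, was lower at -1.14 (adjusted p of 2.899e-04) at day 19 and at -1.51 (adjusted p of 5.245e-05) at day 40. BAG2, an inhibitor of the ligase CHIP, was lower at -0.66 and -0.78 and the exchange factor HSPBP1 at -0.52 and -0.67 on those days, with adjusted p from 3.566e-05 to 3.459e-04.

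Prefoldin hands nascent actin and tubulin to TRiC. Of 10 tested genes of prefoldin and TRiC partners, 8 were lower and 2 not called at day 19, beside 26.5% of all genes lower. At day 40, 6 were lower and 4 not called, beside 23.3% of all genes lower. The median log2 fold changes were -0.41 and -0.34. Without day 19 replicate 2 the day 19 count was 5, and without day 40 replicate 3 the day 40 count was 3. PFDN6 had 55.2, 52.8 and 49.8 CPM in culture, 32.0, 34.7 and 31.0 CPM at day 19, and 33.01, 34.4 and 34.6 CPM at day 40. The log2 fold change of PFDN6 was -0.69 (adjusted p of 8.548e-06) and -0.63 (adjusted p of 2.81e-05), at those days, with no overlap between femur and culture. PFDN5, at 145, 218 and 141 CPM in culture, was lower at -0.60 and -0.44, and at -0.38 and -0.22 without culture replicate 2. Its day 40 call was lost without day 40 replicate 3 (adjusted p of 0.0596). PFDN4 had 15.4, 14.9 and 12.3 CPM at day 19 and 18.4, 36.2 and 15.4 CPM in culture, groups that overlapped. It was lower at day 19 at -0.71, but at -0.26 without culture replicate 2 (adjusted p of 0.0998), and the call was also lost without day 19 replicate 2 or 3 (0.0606 and 0.0964). VBP1, also a prefoldin subunit, was lower at -0.49 at day 40. With all libraries the adjusted p of these 3 genes ran from 0.00223 to 0.0283.

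Of 12 further HSP90 co-chaperones tested, 5 were lower and 7 not called at each day against day 0, with median log2 fold changes of -0.12 at day 19 and -0.18 at day 40. Lower genes made up 26.5% of all genes at day 19 and 23.3% at day 40. FKBP8 was lower at -0.45 (adjusted p of 0.00807) at day 19 and -0.43 (adjusted p of 0.0130) at day 40. SUGT1 was lower at -0.31 at day 19. FKBP5, itself a glucocorticoid-responsive gene, was lower at -0.36 and TOMM34 at -0.28 at day 40. Of 8 further genes listed under heat shock factors and small heat shock proteins, 4 were tested. Among those 4, 1 was lower at day 19 and 2 at day 40. The list is not limited to those families, as it holds the collagen chaperone SERPINH1. The 4 tested genes are too few to set against the share of all genes. HSPB11 was the 1 lower at day 19, at -0.72 (adjusted p of 1.598e-05), and was lower at -0.56 (adjusted p of 1.571e-04) at day 40.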

How the data were processed

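The deposited values were raw whole-number counts of reads per gene for 9 libraries and 58243 Ensembl identifiers, not normalized by the authors. FastQC 0.11.5, STAR 2.5.2a, featureCounts 1.4.6, DESeq2 1.40.1 and the build hg38 are named, per the submitters' processing notes. For the annotation, the strand setting, mouse reads and reads with several positions, no source used here gives the handling. GENCODE release 29 named 57980 of the identifiers. The length per gene was that of the longest transcript at its best APPRIS principal level.

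Genes were tested in R 4.3.3 with the edgeR 4.0.16 quasi-likelihood F-test (filterByExpr, 15163 genes, TMM, a coefficient per group, all 9 libraries), two-sided, with Benjamini-Hochberg adjustment over all genes, at 0.05. Every adjusted p comes from this test unless another is named. The script was tested on simulated counts. Alternatives used other scalings and filters, DESeq2 1.42.0, limma 3.58.1 voom, 2 groups alone, a replicate block, and fits without single libraries. Across genes, deviations from the group means in libraries of the same sampling period correlated at 0.112 to 0.248 between day 40 and culture, 0.158 to 0.357 between day 40 and day 19, and -0.0673 to 0.162 between day 19 and culture, against at most 0.117 between periods. The 0.112 between day 40 and culture belongs to period 1 and is below that maximum. The periods, read from the title dates, were taken as pairs in the day 40 comparisons, with this limit for period 1. Blocked values stand beside the results they change in those comparisons. Full values are given for stress-inducible and abundant members, members with a called log2 fold change of at least 1 and the extreme TRiC subunits. From each further list, up to 3 called genes with the largest change and at least 5 CPM were named. The members, lists and rules were chosen with earlier results of these data known.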

Additional observations from a re-analysis of the deposited data

How the results depend on the processing

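The counts of higher genes depended on the fit more than those of lower genes. At day 19 against day 0, 1 chaperone gene was higher, but 2 were with scaling to library size alone, 3 with a replicate block by sampling period, 4 with the 2 groups alone, 4 with no filter and 4 with day 40 replicate 3 as the only day 40 library. Leaving out 1 library gave 1 to 4. At day 40 against day 0, 4 were higher, but 2 were with DESeq2, with the replicate block, with the 2 groups alone and with day 40 replicate 3 alone, and 1 with limma voom. Leaving out 1 library gave 2 to 4 higher and 9 to 21 lower genes, with 9 without day 40 replicate 3 and 21 without day 40 replicate 1. DESeq2 gave BAG3 no adjusted p. At day 40 against day 19, 0 were higher, but 1 was with DESeq2, 1 with the replicate block and 8 with no filter. Without a filter edgeR estimated an infinite prior degrees of freedom, so that genes had no spread of their own, and its added calls rest on that. BAG3 at day 40 turned to -0.35 with day 40 replicate 3 alone and ranged from -0.22 to 2.62 on leaving out 1 library, and HSPH1 from -0.41 to 0.42. HSPA1B and HSPB1 at day 40 stayed positive in every alternative, HSPA1B with an adjusted p of 0.0823 in limma voom and under 0.05 in the others. At day 19, where the periods were not taken as pairs, the replicate block added HSPA1B (2.13, adjusted p of 0.0149), HSPB1 (1.18, 0.0227), HSP90AA1 (-0.31, 0.0413) and DNAJC7 (-0.17, 0.0342) to the calls. The other counts of called members stayed within 1.5 times. HSPA1A did not pass the filter on low counts, with more than 3 counts only in day 40 replicate 1.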

Other observations

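Chaperones of the endoplasmic reticulum, which fold secreted and membrane proteins, were also mostly lower in the femur. Of 13 tested genes, 1 was higher and 10 lower at day 19, and 1 was higher and 9 lower at day 40, against day 0, with median log2 fold changes of -0.57 and -0.30. Among all genes 26.3% were higher and 26.5% lower at day 19, and 23.3% higher and 23.3% lower at day 40. DNAJC10, a reductase that unlinks disulfides, had 299, 313 and 298 CPM in culture, 154, 139 and 140 CPM at day 19, and 220, 231 and 201 CPM at day 40. Its log2 fold change was -1.07 (edgeR adjusted p of 1.35e-07) at day 19 and -0.48 (adjusted p of 1.492e-04) at day 40. It was also higher at day 40 than at day 19, at 0.59 (adjusted p of 5.549e-04). SDF2L1 was lower at -0.86 and -0.76 on these days, and PDIA4, a disulfide isomerase, at -0.68 and -0.59.

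DNAJB9, a J-domain partner of the endoplasmic HSP70, was the 1 higher gene at both days, with 14.3, 15.3 and 15.0 CPM in culture, 29.4, 22.4 and 28.0 CPM at day 19, and 28.1, 19.5 and 20.7 CPM at day 40. Its log2 fold change was 0.84 (edgeR adjusted p of 3.614e-04) at day 19 and 0.61 (adjusted p of 0.00384) at day 40. HSP90B1, the HSP90 of this compartment, had 236, 258 and 245 CPM in culture, 259, 239 and 258 CPM at day 19, and 276, 258 and 226 CPM at day 40, and was not called.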
